A study of Homo sapiens with 10 samples.

Results

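Integrins are cell-surface receptors built from an alpha and a beta chain, and laminins are matrix proteins built from an alpha, a beta and a gamma chain. Laminins polymerise into basement membranes, the sheets on which epithelia and neuroepithelium rest, and integrins anchor cells to them and to fibronectin, collagens and other matrix proteins. Neural progenitors of the developing brain attach to a laminin-rich basement membrane through integrins that share the beta chain ITGB1. The genes of both families were taken from the gene counts of 10 RNA sequencing libraries by symbol: ITGA or ITGB followed by digits or by E, L, M, V, X or 2B, and LAMA, LAMB or LAMC followed by 1 digit. The symbols matched 37 of 60898 rows, and 35 had at least 10 counts in at least 2 libraries: 15 integrin alpha chains, 8 integrin beta chains and 12 laminin chains. ITGA8 (38 counts over all libraries) and ITGAX (48 counts) did not reach that minimum. ITGAL did, but the filter on low counts removed it, so 34 members were among the 21063 genes tested. ITGAL, ITGAM, ITGB2 and ITGB6 met the minimum only when the knockout libraries were counted, and 31 members met it without them.

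All libraries came from neural progenitor cells (NPCs) that were derived from the human embryonic stem cell line H1 and labelled P3, in 5 groups of 2. The groups were STAMBP-KO cells given CFLAR (KO+CFLAR), STAMBP-KO cells given STAMBP (KO+STAMBP), STAMBP-KO lines KO1 and KO2 (KO, 4 libraries together) and unedited cells (WT). STAMBP is a deubiquitinase of the endosomal sorting pathway and CFLAR is an inhibitor of caspase-8 activation. Which knockout line was given a construct is not stated, nor are separate cultures within a group, so p-values measure only the spread between libraries, which may be technical. The study asked what STAMBP does in the long-term maintenance of these cells.

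Libraries held 16495116 to 20832700 counts. STAMBP itself was at 18.6 ± 1.19 CPM (read counts scaled to a common library size with TMM factors) in KO and 45.2 ± 2.71 CPM in WT (SD, n = 4 and 2). Libraries with the label KO+CFLAR held STAMBP at 41.4 ± 2.01 CPM, close to the 42.8 ± 3.42 CPM of KO+STAMBP, and CFLAR was at 30.4 ± 1.35 CPM, against 253.7 ± 8.10 CPM in KO and 32.2 ± 2.68 CPM in WT. These libraries therefore show neither the low STAMBP of the knockout nor raised CFLAR, and every direction given for them rests on their label. The libraries labelled KO1 and KO2 held low STAMBP together with CFLAR far above WT, and directions given for KO rest on their labels too. The neural progenitor markers NES and PAX6 were at 660.0 ± 10.1 and 208 ± 3.95 CPM in KO and at 773 ± 4.75 and 181 ± 0.119 CPM in WT. SOX2, also a progenitor marker, was at 28.4 ± 1.36 CPM in KO and 297 ± 0.425 CPM in WT.

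Most of these subunits were more abundant in the knockout. Together they took 0.643% to 0.671% of all counts in the 4 KO libraries and 0.194% to 0.199% in the WT libraries. In KO vs WT, 24 of the 34 tested members were higher and 6 were lower at an adjusted p under 0.05. Over all tested genes 76.2% were called (36.8% as higher and 39.4% as lower), beside 88.2% of the members, so a call by itself sets few of them apart. The median log2 change of the 34 members was 1.94, beside -0.04 over all genes tested, and 17 members changed at least 4-fold, beside 25% of all genes. ITGAM, ITGB2 and ITGB6, which met the count minimum only through the knockout libraries, are among the 24 and the 17. Over the 31 members that met it without them, 21 were higher and 6 lower (87.1% called), 14 changed at least 4-fold and the median log2 change was 1.61. Of the 14 tested alpha chains 10 were higher and 3 lower, of the 8 beta chains 7 were higher and 1 lower, and of the 12 laminin chains 7 were higher and 2 lower. In these bulk libraries, fewer cells of a type and less RNA per cell cannot be told apart.

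**Figure D1:**
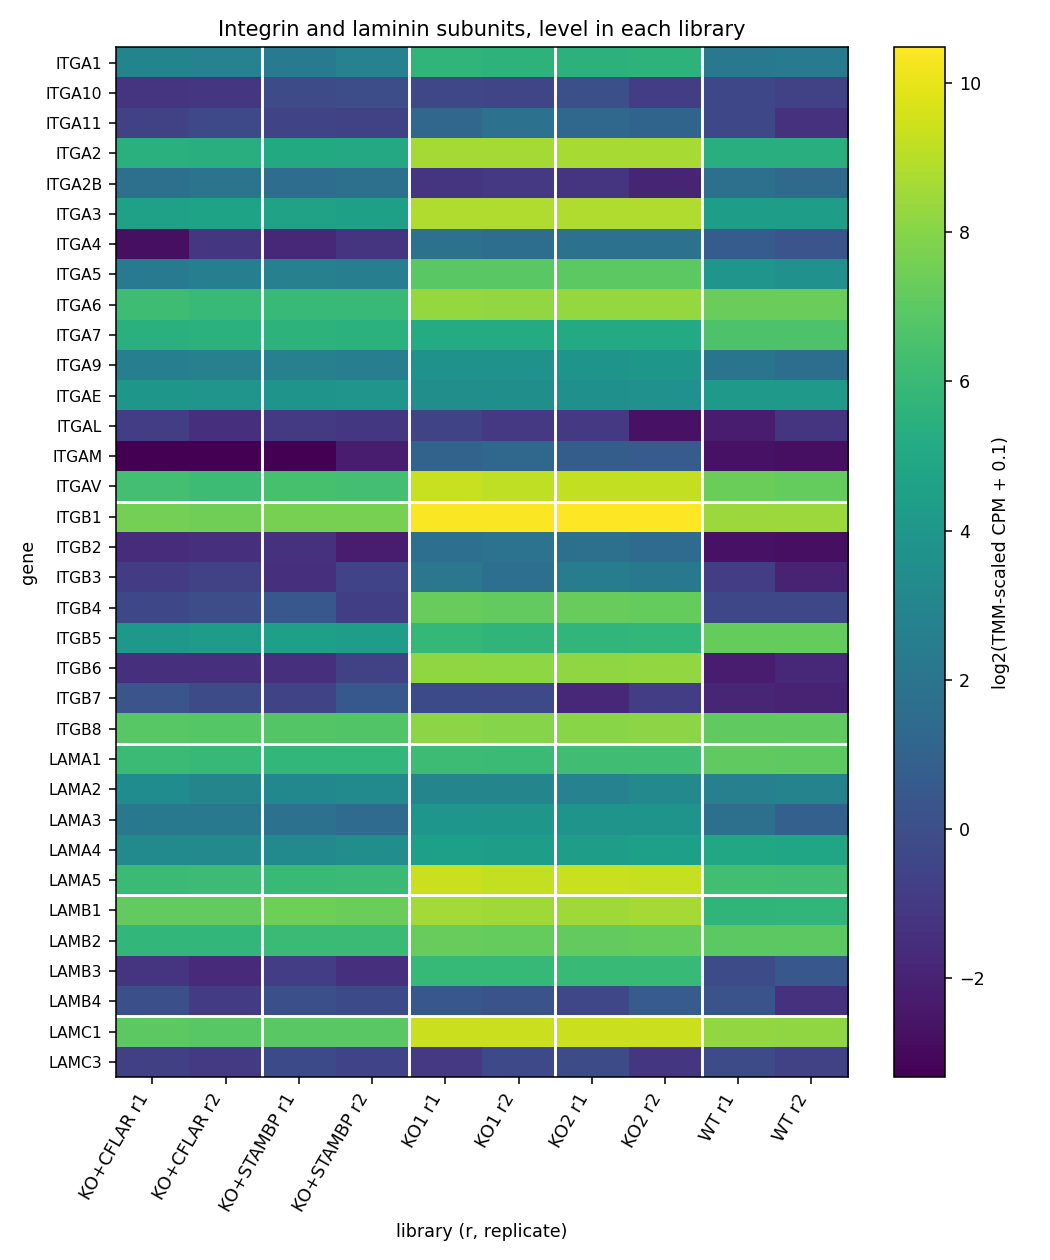
Level of members (rows) in each of the 10 libraries (columns), as log2 of TMM-scaled CPM plus 0.1; white lines separate groups and families. The 4 knockout columns are brighter for ITGB6, ITGB4 and LAMB3, which are dark in the KO+CFLAR, KO+STAMBP and WT columns.

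**Figure D2:**
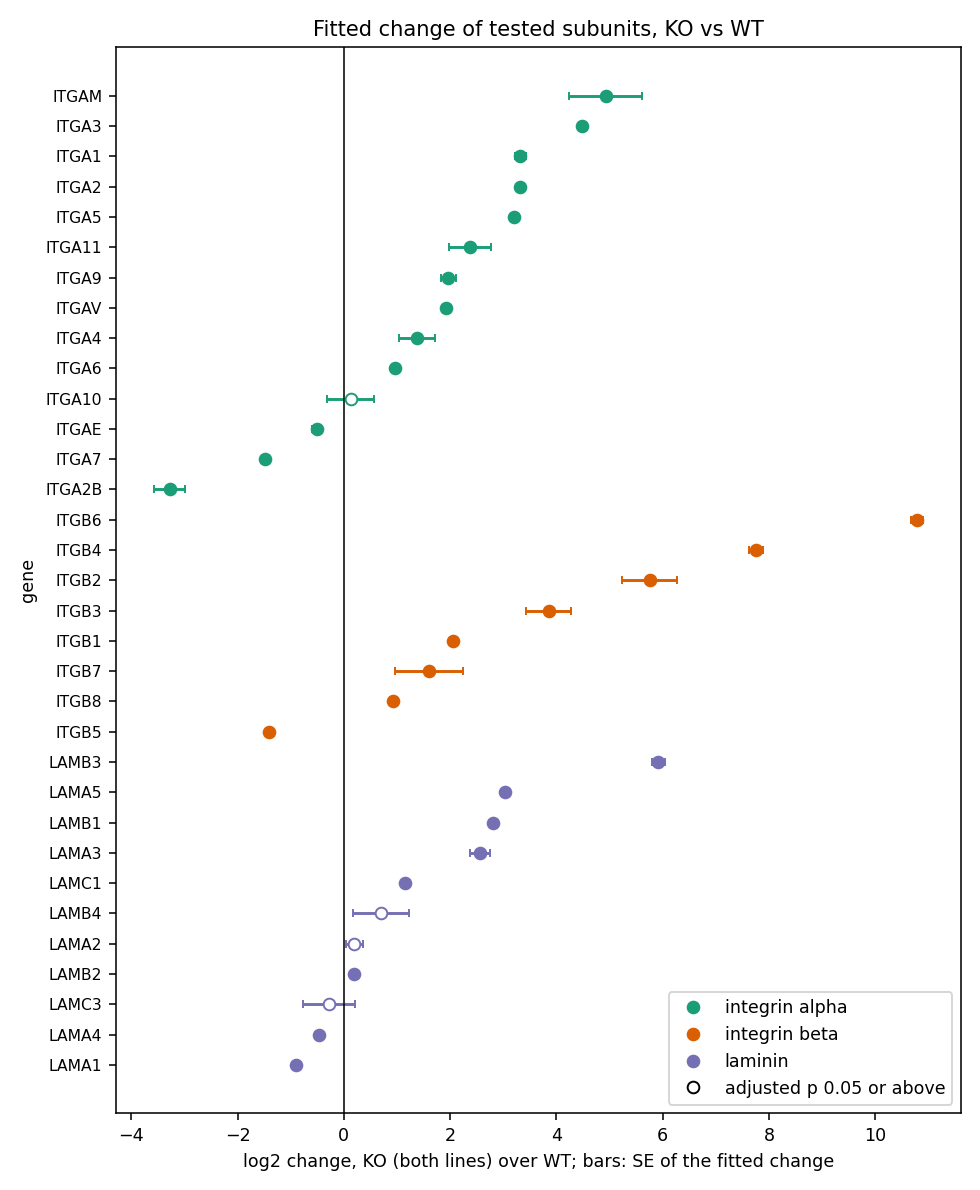
Fitted log2 change in KO over WT (x axis) of tested members (y axis), by family, with bars of 1 SE; open points missed the adjusted p threshold of 0.05. ITGB6 at 10.78 is the highest point and ITGA2B at -3.27 the lowest.

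Markers of other cell types moved in the same comparison. The epithelial markers KRT8, KRT18, KRT5, EPCAM, CDH1, GRHL2 and TP63 summed to 5230 to 5556 CPM in the KO libraries and 30.7 to 32.6 CPM in the WT libraries, with 6 of 7 higher. Of 5 mesenchyme markers 3 were higher and 2 lower, and their sum was 2040 to 2119 CPM in KO and 93.0 to 97.5 CPM in WT. Collagen genes gave nearly all of the KO sum. PDGFRB, 1 of the 2 lower, was at 8.93 ± 0.996 CPM in KO and 19.9 ± 1.01 CPM in WT. Of 8 neural progenitor markers 1 was higher and 6 were lower, with sums of 3161 to 3175 CPM in KO and 4877 to 5107 CPM in WT. Of 4 endothelial markers 3 were higher and 1 lower, among them PECAM1 (log2 change 1.94 ± 0.47, SE) and TEK (-1.77 ± 0.22). The 4 summed to 5.73 to 6.40 CPM in KO and 5.64 to 5.76 CPM in WT. The sum of the neural crest and Schwann cell markers was 139.2 to 149.7 CPM in KO and 2.25 to 2.44 CPM in WT; ERBB3 gave nearly all of it, and SOX10 stood at 0.495 ± 0.156 CPM in KO and 0.238 ± 0.00828 CPM in WT. The part of these markers in the changes below was not tested.

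LAMA3 and LAMB3, the alpha and beta chains of an epithelial laminin, were higher in the knockout. LAMB3 was at 60.9, 60.5, 64.4 and 65.0 CPM in KO and 0.814 and 1.22 CPM in WT (log2 change 5.91 ± 0.12, SE, adjusted p = 5.00e-15). The alpha chain, LAMA3, was at 15.4, 15.8, 13.9 and 14.1 CPM in KO and 3.26 and 1.81 CPM in WT (log2 change 2.57 ± 0.19, adjusted p = 1.02e-08). For both chains, the lowest KO library lay above the highest WT library. LAMA3 lies on chromosome 18, 23689443 to 23956222 and LAMB3 on chromosome 1, 209614870 to 209652466 (GRCh38, GENCODE 29).

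Promoter sequence was examined for the motif TGANTCA, which is bound by AP-1 (FOS and JUN dimers), on both strands, in windows from 250 bases before to 50 bases after each RefSeq transcription start (GRCh38.p14). The RefSeq table held 32 windows for 25 members, and entries for ITGA3, ITGA7, ITGA9, ITGAL, ITGB2, ITGB3, ITGB4, LAMA1 and LAMC3 were among those missing. The motif was found in 3 of these 32 windows, beside 2707 of all 35116 windows (7.71%). It occurred at -125 and -69 from the start in a LAMA3 window (chr18:23872770-23873069, plus strand), at -67 in 1 of the 3 LAMB3 windows (chr1:209651325-209651624, minus strand) and at -6 in the ITGA5 window (chr12:54419217-54419516, minus strand). The ITGB6 window (chr2:160200223-160200522, minus strand), of the member with the largest fitted change, held none. The LAMA3 and LAMB3 windows start inside the GENCODE gene spans, away from the outermost starts. The 4 windows are shown because they hold the 3 members with the motif and the most changed member; capitals mark the motif, and a match describes letters only.
LAMA3: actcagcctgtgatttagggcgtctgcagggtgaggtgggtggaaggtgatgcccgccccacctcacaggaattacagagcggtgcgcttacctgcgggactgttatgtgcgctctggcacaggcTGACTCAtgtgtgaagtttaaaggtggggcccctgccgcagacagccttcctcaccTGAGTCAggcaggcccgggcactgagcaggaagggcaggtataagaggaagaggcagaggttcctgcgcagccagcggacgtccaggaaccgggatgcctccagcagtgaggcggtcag
LAMB3: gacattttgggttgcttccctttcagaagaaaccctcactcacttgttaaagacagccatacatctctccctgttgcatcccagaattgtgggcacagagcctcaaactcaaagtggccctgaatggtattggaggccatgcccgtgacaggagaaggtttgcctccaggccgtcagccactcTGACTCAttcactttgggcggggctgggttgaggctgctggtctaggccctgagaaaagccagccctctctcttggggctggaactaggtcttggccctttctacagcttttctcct
ITGA5: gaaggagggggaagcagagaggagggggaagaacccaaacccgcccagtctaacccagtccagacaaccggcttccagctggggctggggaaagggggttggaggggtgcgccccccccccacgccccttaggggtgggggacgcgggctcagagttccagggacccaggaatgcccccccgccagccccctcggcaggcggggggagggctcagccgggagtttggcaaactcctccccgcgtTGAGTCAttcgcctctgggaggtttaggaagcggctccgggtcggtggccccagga
ITGB6: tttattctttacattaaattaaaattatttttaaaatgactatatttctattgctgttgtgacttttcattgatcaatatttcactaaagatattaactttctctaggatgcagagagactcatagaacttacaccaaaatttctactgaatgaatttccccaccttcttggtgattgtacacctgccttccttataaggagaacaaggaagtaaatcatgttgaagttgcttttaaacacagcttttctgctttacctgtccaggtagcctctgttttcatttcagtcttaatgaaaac
The GC-rich motif GGGCGG, bound by SP1, was in 18 of the 32 member windows, covering 13 of the 25 genes, beside 45.0% of all windows.

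Among the broadly used laminin chains, LAMA5, LAMB1 and LAMC1 were higher in the knockout and LAMA1 and LAMA4 lower. LAMA5, the main alpha chain of adult epithelial basement membranes, was at 666, 602, 647 and 611 CPM in KO and 78.4 and 76.0 CPM in WT (log2 change 3.03 ± 0.05, adjusted p = 6.75e-16). LAMA1, the alpha chain of early embryonic basement membranes, was at 70.3, 68.4, 76.4 and 75.6 CPM in KO and 137 and 135 CPM in WT (log2 change -0.90 ± 0.04, adjusted p = 6.75e-11). LAMA4, found mostly in vascular basement membranes, was at 21.8, 21.5, 20.5 and 21.9 CPM in KO and 30.2 and 29.1 CPM in WT (log2 change -0.47 ± 0.08, adjusted p = 5.65e-05). The alpha chains thus differed in direction, and no KO library fell within the WT range of LAMA5, LAMA1 or LAMA4.

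LAMB1, the most widespread beta chain, was at 377, 362, 364 and 388 CPM in KO and 52.8 and 53.2 CPM in WT (log2 change 2.81 ± 0.04, adjusted p = 1.77e-16). LAMC1, the gamma chain of most laminins, was at 658, 657, 667 and 675 CPM in KO and 305 and 294 CPM in WT (log2 change 1.15 ± 0.03, adjusted p = 1.40e-13). Both were higher in every KO library than in either WT library. On the opposite strand, LAMB1 overlaps DLD and LAMA5 overlaps ADRM1, whose reads cannot be told apart without a stated strand setting. LAMB2, a beta chain of synaptic and kidney basement membranes, was at 152, 148, 146 and 149 CPM in KO and 129 and 130.1 CPM in WT, a log2 change of 0.20 ± 0.03 (adjusted p = 0.000101). That small difference had an adjusted p of 0.587 and a log2 change of 0.02 when libraries were scaled by size alone. LAMA2, the alpha chain of muscle and Schwann cell laminin, averaged 7.77 ± 0.890 CPM in KO and 6.77 ± 0.446 CPM in WT, and the groups overlapped (log2 change 0.20 ± 0.15, adjusted p = 0.250). LAMB4 and LAMC3 stayed under 2 CPM in every library and were not called (adjusted p = 0.240 and 0.620).

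The alpha chains that pair with ITGB1 or ITGB4 to bind laminin did not move together. ITGA3, a receptor chain for the epithelial laminins, was at 457, 448, 461 and 454 CPM in KO and 20.2 and 20.3 CPM in WT (log2 change 4.49 ± 0.05, adjusted p = 5.45e-18). ITGA6, which pairs with ITGB1 or with ITGB4, was at 315, 301, 311 and 314 CPM in KO and 161 and 157 CPM in WT (log2 change 0.96 ± 0.04, adjusted p = 2.92e-11). ITGA7, a laminin receptor chain best known from muscle, was at 36.1, 35.3, 34.0 and 34.6 CPM in KO and 97.3 and 98.2 CPM in WT (log2 change -1.48 ± 0.05, adjusted p = 6.55e-13). ITGA3 and ITGA6 were thus high and ITGA7 low in all 4 KO libraries. ITGB4, the hemidesmosome beta chain and partner of ITGA6, was at 154, 143, 155 and 147 CPM in KO and 0.698 and 0.684 CPM in WT (log2 change 7.75 ± 0.13, adjusted p = 7.25e-16). ITGB4 lies on chromosome 17, 75721328 to 75757818 and overlaps GALK1 on the opposite strand, whose reads cannot be told apart without a stated strand setting.

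ITGB1, the beta chain shared by most of the alpha chains here, was at 1353, 1362, 1396 and 1427 CPM in KO and 338 and 333 CPM in WT (log2 change 2.04 ± 0.03, adjusted p = 3.14e-16). Its pseudogene row ITGB1P1 held 187 to 287 counts in the KO libraries and 59 to 75 counts in the WT libraries, and reads of the near-identical pair may be split between them. The collagen receptor chains followed. ITGA2 was at 396, 396, 407 and 413 CPM in KO and 40.8 and 40.1 CPM in WT (log2 change 3.32 ± 0.04, adjusted p = 1.64e-17). ITGA1 was at 51.3, 47.9, 46.2 and 48.0 CPM in KO and 4.77 and 4.88 CPM in WT (log2 change 3.32 ± 0.10, adjusted p = 4.54e-13). Both collagen receptor chains stood far higher in KO, with no overlap. ITGA11, a collagen receptor chain of fibroblasts, averaged 2.56 ± 0.651 CPM in KO and 0.495 ± 0.286 CPM in WT (SD, n = 4 and 2; log2 change 2.37 ± 0.40, adjusted p = 7.90e-05). ITGA10, that of cartilage, averaged 0.674 ± 0.191 CPM in KO and 0.617 ± 0.113 CPM in WT and was not called (adjusted p = 0.805).

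The fibronectin and vitronectin receptor chains included the largest fitted change of the families. ITGB6, an epithelial partner of ITGAV that binds and activates latent TGF-beta, was at 296, 284, 293 and 298 CPM in KO and 0.116 and 0.195 CPM in WT (log2 change 10.78 ± 0.11, adjusted p = 3.85e-18). The WT values rest on 2 and 4 counts, and by counting error alone the ratio of KO to WT was 1840 with a 95% interval of 845.3 to 5015, a wider range than the fitted SE gives. This member met the count minimum only through the knockout libraries, so its adjusted p gives no independent support. ITGB6 lies on chromosome 2, 160099666 to 160200313, with no annotated gene on the opposite strand. ITGAV itself, the alpha chain of ITGB3, ITGB5, ITGB6 and ITGB8 and one partner of ITGB1, was at 629.8, 574, 598 and 586 CPM in KO and 165 and 151 CPM in WT (log2 change 1.92 ± 0.06, adjusted p = 6.85e-13). ITGB6 was near 0 in WT, while ITGAV was plentiful in both groups.

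The other ITGAV partners split. ITGB8, a further activator of latent TGF-beta that is also found on neural progenitors and glia, was at 275, 255, 262 and 266 CPM in KO and 139 and 139 CPM in WT (log2 change 0.93 ± 0.04, adjusted p = 1.83e-11). ITGB5, a vitronectin receptor chain, was at 57.9, 52.9, 54.6 and 56.5 CPM in KO and 147 and 148 CPM in WT (log2 change -1.41 ± 0.05, adjusted p = 3.91e-12). ITGB3, the partner of ITGAV in bone and vessels and of ITGA2B in platelets, averaged 4.39 ± 0.903 CPM in KO and 0.306 ± 0.225 CPM in WT (log2 change 3.85 ± 0.42, adjusted p = 9.68e-07). The ITGB3 values in WT rest on 8 and 3 counts. ITGB5 was therefore the beta chain called lower in KO, where the other 7 were called higher. Of those 7, ITGB2 and ITGB6 met the count minimum only through the knockout libraries, and ITGB7 lost its call under several alternatives.

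ITGA5, the classic fibronectin receptor chain, was at 126, 123, 129 and 129 CPM in KO and 14.8 and 12.7 CPM in WT (log2 change 3.21 ± 0.07, adjusted p = 4.83e-15). All KO libraries lay far above WT. ITGA4, a fibronectin and VCAM1 receptor chain, averaged 3.40 ± 0.208 CPM in KO and 1.32 ± 0.274 CPM in WT (log2 change 1.37 ± 0.34, adjusted p = 0.00231). ITGA9, a tenascin and osteopontin receptor chain, averaged 14.0 ± 1.16 CPM in KO and 3.60 ± 0.667 CPM in WT (log2 change 1.97 ± 0.14, adjusted p = 7.55e-09). Its antisense row, ITGA9-AS1, went the other way, with 37 to 44 counts in KO and 120 to 152 counts in WT. ITGA2B, the platelet chain, averaged 0.306 ± 0.0931 CPM in KO and 2.95 ± 0.437 CPM in WT (log2 change -3.27 ± 0.29, adjusted p = 1.08e-07), the largest fall among the 34. The ITGA2B values in KO rest on 6, 6, 5 and 3 counts.

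Apart from ITGAE, the chains best known from leukocytes that follow were under 5 CPM in every library. ITGB2, their shared beta chain, had 57, 57, 50 and 48 counts in the 4 KO libraries and 1 and 1 in WT, a ratio of 60.5 with a 95% counting interval of 16.5 to 502.8. Its partner ITGAM had 37, 36, 24 and 25 counts in KO and 1 and 1 in WT, a ratio of 34.8 (9.43 to 290.7). Both met the count minimum only through the knockout libraries, so their adjusted p in KO vs WT (1.38e-07 and 1.93e-05) gives no independent support. The intervals cover counting error only. PTPRC, the pan-leukocyte marker, was at 0.0944 ± 0.0634 CPM in KO and 0.321 ± 0.0394 CPM in WT, the T cell marker CD3E at 0.118 ± 0.0780 CPM in KO and 0 CPM in both WT libraries, and the monocyte marker CD14 at 0.466 ± 0.212 CPM in KO and 0.263 ± 0.0428 CPM in WT. Their part in the ITGB2 and ITGAM changes was not tested. ITGAL had 1 to 11 counts in the KO libraries and 2 and 7 in WT and was not tested. ITGAE, known from epithelium-resident lymphocytes, averaged 11.8 ± 0.668 CPM in KO and 16.9 ± 0.0712 CPM in WT (log2 change -0.51 ± 0.08, adjusted p = 7.07e-05). ITGB7, its partner, averaged 0.536 ± 0.263 CPM in KO and 0.160 ± 0.0197 CPM in WT (log2 change 1.61 ± 0.64, adjusted p = 0.0340). That call was lost with DESeq2 (adjusted p = 0.0676), with KO2 as the only knockout line (0.23), with library size alone as the scaling (0.0556) and without KO1 replicate 1, KO2 replicate 2, WT replicate 1 or WT replicate 2 (0.0586 to 0.156).

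Per length, the makeup of the laminin alpha and beta chains differed between the groups. Levels between genes are compared here as CPM per kb of merged exon length, and shares are percentages of the family's summed CPM per kb. Among laminin alpha chains, LAMA5 held 84.3% in KO and 31.1% in WT, and LAMA1 held 8.75% in KO and 49.4% in WT. Among laminin beta chains, LAMB1 held 56.5%, LAMB2 26.8% and LAMB3 16.5% in KO, against 25.3%, 73.5% and 0.843% in WT. The leading alpha chain was thus LAMA5 in KO and LAMA1 in WT, and the leading beta chain LAMB1 in KO and LAMB2 in WT.

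ITGB1 led the integrin beta chains in both groups, with 67.2% of their CPM per kb in KO and 63.3% in WT. The chain next to it was ITGB6 in KO, at 62.5 ± 1.32 CPM per kb (SD, n = 4), and ITGB5 in WT, at 22.9 ± 0.0603 CPM per kb (SD, n = 2). ITGB5 itself was at 8.60 ± 0.339 CPM per kb in KO. Among alpha chains in KO, ITGAV came first at 72.7 ± 2.94 CPM per kb. ITGA2 at 50.9 ± 1.06, ITGA6 at 47.5 ± 0.947 and ITGA3 at 46.4 ± 0.545 CPM per kb followed. The ranges over the KO libraries overlap for ITGA6 (46.1 to 48.2) and ITGA3 (45.7 to 47.0). In WT the order was ITGA6 at 24.4 ± 0.419, ITGAV at 19.2 ± 1.18 and ITGA7 at 15.3 ± 0.103 CPM per kb. The order depends on the length used: per kb of longest transcript ITGAV at 84.9 ± 3.43 and ITGA3 at 83.0 ± 0.976 CPM per kb came first in KO and do not differ beyond their SDs, and ITGA7 at 23.7 ± 0.159 CPM per kb came next to ITGA6 in WT, within the SD of ITGAV at 22.4 ± 1.38. Summed CPM per kb was 247 ± 4.43 in KO and 72.0 ± 1.94 in WT for alpha integrins and 343 ± 6.79 in KO and 88.1 ± 0.622 in WT for beta integrins. For laminins the sums were 52.4 ± 2.08 in KO and 17.4 ± 0.299 in WT for alpha and 81.0 ± 1.95 in KO and 25.7 ± 0.112 in WT for beta chains. These 4 sums were higher in KO.

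**Figure D3:**
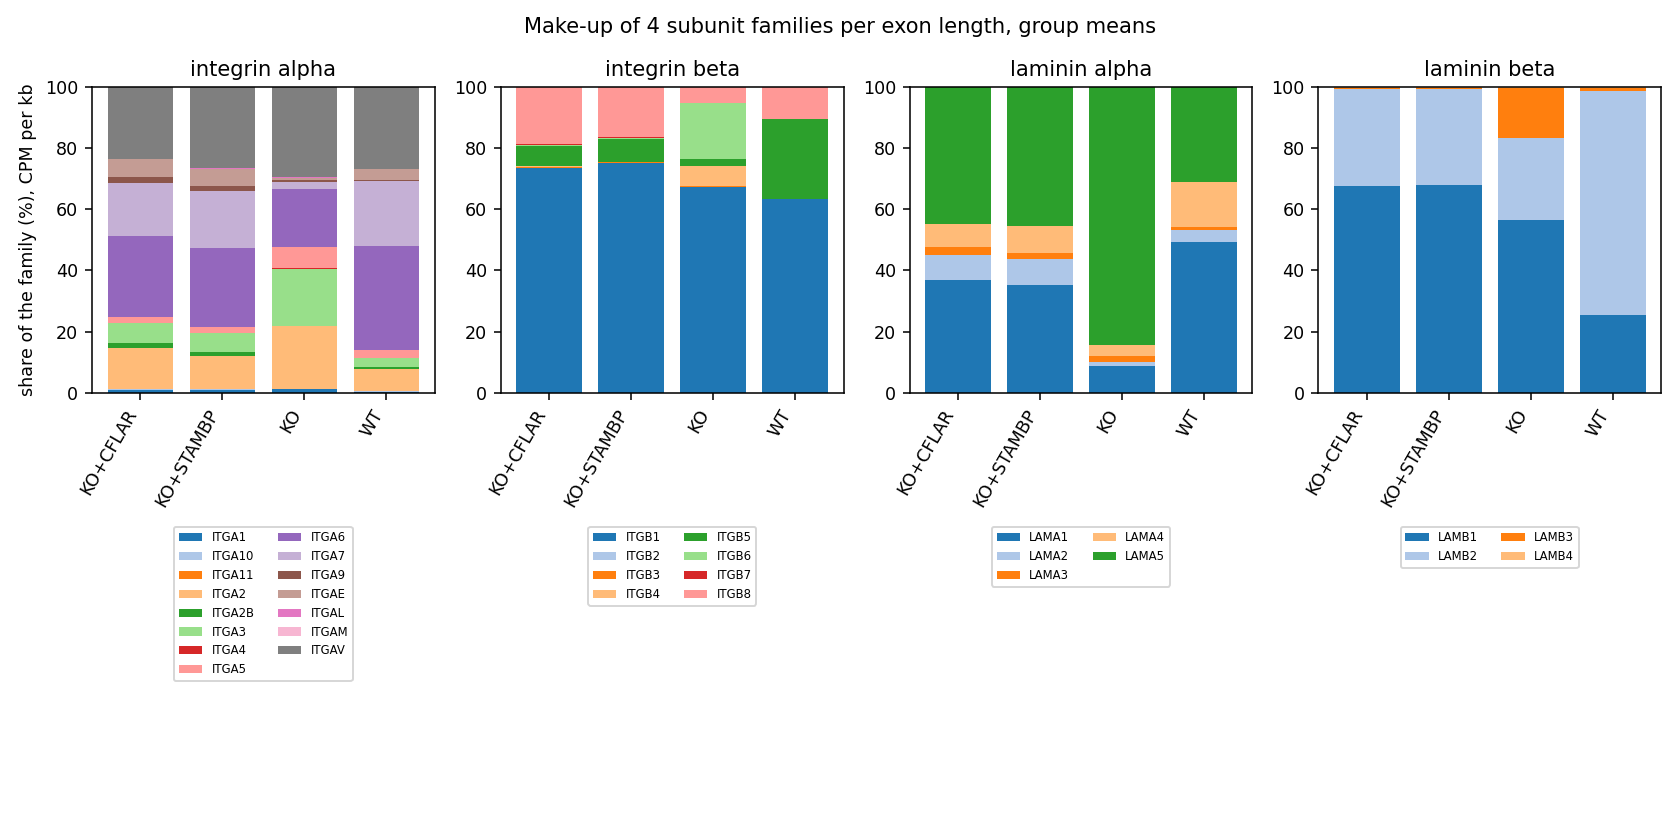
Share of the summed CPM per kb of 4 families (y axis, percent, group means) taken by each chain in KO+CFLAR, KO+STAMBP, KO and WT (x axis). The largest part of the laminin alpha bar is LAMA5 in KO+CFLAR, KO+STAMBP and KO and LAMA1 in WT.

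In both groups given a construct, most members were lower than in KO. In KO+CFLAR vs KO, 26 of 34 tested members were lower and 3 higher (background 78% called, 38% as lower and 40% as higher), with a median log2 change of -2.08, beside 0.04 over all genes, and 18 changed at least 4-fold, beside 26.4% of all genes. In KO+STAMBP vs KO, 26 were lower and 3 higher (background 77.9% called, 37.8% as lower and 40.1% as higher), with a median of -2.25, beside 0.04 over all genes, and 20 changed at least 4-fold, beside 26.3%. Over the 31 members that met the count minimum without the knockout libraries, 23 were lower and 3 higher in each comparison, the medians were -1.67 in KO+CFLAR vs KO and -2.12 in KO+STAMBP vs KO, and 15 and 17 changed at least 4-fold. These comparisons share the 4 KO libraries with each other and with KO vs WT, so their values are given side by side and no agreement between them is counted. For KO+CFLAR the direction rests on a label that its STAMBP and CFLAR levels do not bear out. Epithelial markers summed to 49.5 to 51.3 CPM in KO+CFLAR and 57.7 to 59.0 CPM in KO+STAMBP, against 5230 to 5556 CPM in KO, and the mesenchyme markers to 80.1 to 84.0 CPM in KO+CFLAR and 102.3 to 103.7 CPM in KO+STAMBP, against 2040 to 2119 CPM in KO. Collagen genes gave nearly all of the mesenchyme sum in KO. The part of the epithelial and mesenchyme markers in these changes was not tested.

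LAMA3, LAMB3 and the hemidesmosome chain ITGB4 were low in both of these groups. LAMB3 was at 0.326 and 0.227 CPM in KO+CFLAR and 0.464 and 0.267 CPM in KO+STAMBP (log2 change from KO -7.79 ± 0.15 and -7.39 ± 0.15). LAMA3 was at 4.61 and 4.67 CPM in KO+CFLAR and 3.45 and 2.78 CPM in KO+STAMBP (-1.67 ± 0.16 and -2.24 ± 0.18). Both laminin chains were thus low in the 4 libraries given a construct. ITGB4 was at 0.698 and 0.861 CPM in KO+CFLAR and 1.24 and 0.481 CPM in KO+STAMBP (-7.57 ± 0.13 and -7.42 ± 0.13). ITGB6 was at 0.279 and 0.272 CPM in KO+CFLAR and 0.258 and 0.534 CPM in KO+STAMBP (-10.02 ± 0.10 and -9.52 ± 0.10). The largest adjusted p of these 8 changes was 3.01e-07, where ITGB6 met the count minimum only through the knockout libraries. ITGA3 was at 23.8 and 25.9 CPM in KO+CFLAR and 24.3 and 22.8 CPM in KO+STAMBP (-4.19 ± 0.05 and -4.27 ± 0.05), and ITGA1 at 7.40 and 6.75 CPM in KO+CFLAR and 5.26 and 6.84 CPM in KO+STAMBP (adjusted p = 1.05e-12 and 8.30e-13). These receptor chains for laminin and collagen stood far below their KO levels too. ITGB2 had 5 and 6 counts in KO+CFLAR and 6 and 2 in KO+STAMBP. ITGAM had 0 counts in both KO+CFLAR libraries and 0 and 2 in KO+STAMBP, and a count of 0 allows up to 0.136 to 0.155 CPM in these libraries.

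The members higher than in KO were ITGA2B, ITGA7 and ITGAE in each comparison. On the opposite strand, ITGA7 overlaps BLOC1S1, BLOC1S1-RDH5 and METTL7B, and ITGAE overlaps HASPIN and antisense genes. As for ITGB4, reads of such genes cannot be told apart without a stated strand setting. ITGA2B was at 3.26 and 3.85 CPM in KO+CFLAR and 2.99 and 3.26 CPM in KO+STAMBP (log2 change from KO 3.55 ± 0.28 and 3.36 ± 0.29, adjusted p = 2.60e-08 and 6.83e-08). ITGA7 was at 42.8 and 44.2 CPM in KO+CFLAR and 48.3 and 44.3 CPM in KO+STAMBP (0.31 ± 0.05 and 0.40 ± 0.05, adjusted p = 6.59e-05 and 5.93e-06). ITGAE was at 15.6 and 14.7 CPM in KO+CFLAR and 14.1 and 14.6 CPM in KO+STAMBP (0.36 ± 0.08 and 0.28 ± 0.09, adjusted p = 0.00145 and 0.00889). ITGAE lost its call in KO+STAMBP vs KO with DESeq2 (adjusted p = 0.0582), without KO+STAMBP replicate 2 (0.0617) and with KO2 as the only knockout line (0.0656). ITGA10, ITGB7, LAMA2, LAMB4 and LAMC3 were not called in either comparison.

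Against WT, the groups given a construct kept differences of their own. In KO+CFLAR vs WT, 7 members were higher and 13 lower (background 33.7% called, 15.8% as higher and 17.9% as lower), with a median log2 change of -0.15 beside 0.01 over all genes. In KO+STAMBP vs WT, 5 were higher and 15 lower (background 34.9% called, 16.4% as higher and 18.5% as lower), with a median of 0.00, or 0.02 with ITGB2 set to its bound and ITGAM left out (3 counts or fewer), beside 0.01 over all genes. Over the 31 members that met the count minimum without the knockout libraries the median was -0.23. Without WT replicate 2 the 5 higher members became 3. At least 4-fold changes numbered 3 in each comparison, beside 1.85% of all genes in KO+CFLAR vs WT and 2.05% in KO+STAMBP vs WT. Both comparisons use the same WT libraries, and the direction for KO+CFLAR again rests on its label.

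LAMB1 stood between KO and WT. It was at 145 and 144 CPM in KO+CFLAR and 174 and 169 CPM in KO+STAMBP, above the 52.8 and 53.2 CPM of WT (log2 change 1.45 ± 0.05 and 1.69 ± 0.05, adjusted p = 2.07e-11 and 4.19e-12) and below KO (-1.37 ± 0.04 and -1.12 ± 0.04). ITGA9 was also between them, at 6.19 and 6.25 CPM in KO+CFLAR and 6.44 and 5.87 CPM in KO+STAMBP, a log2 change from WT of 0.80 ± 0.16 and 0.79 ± 0.17 (adjusted p = 0.00148 and 0.00185). ITGA9-AS1 had 114 to 144 counts in these 4 libraries and 120 to 152 in WT. ITGA3 was slightly above WT, with log2 changes of 0.30 in KO+CFLAR and 0.22 in KO+STAMBP (adjusted p = 0.00218 and 0.0189). In KO+STAMBP its call was lost without KO+STAMBP replicate 1 (adjusted p = 0.157), WT replicate 1 (0.0754) or WT replicate 2 (0.0799). ITGB7 was above WT by 2.58 ± 0.63 in KO+CFLAR and 2.52 ± 0.64 in KO+STAMBP (adjusted p = 0.00575 and 0.00706). These calls were lost without WT replicate 2 and, in KO+STAMBP, without KO+STAMBP replicate 2. The ITGB7 values in WT rest on 3 and 3 counts, and ITGB7 overlaps ZNF740 on the opposite strand. ITGA1 and LAMA3 were called higher in KO+CFLAR vs WT (0.55 ± 0.14 and 0.90 ± 0.22, adjusted p = 0.00684 and 0.00608), ITGA1 not without KO+CFLAR replicate 1 (0.0518) and LAMA3 not without WT replicate 2 (0.097).

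Several major chains lay below both KO and WT. ITGB5 was at 16.4 and 19.3 CPM in KO+CFLAR and 22.4 and 20.4 CPM in KO+STAMBP, a log2 change from WT of -3.04 ± 0.07 and -2.79 ± 0.07 (adjusted p = 7.31e-13 and 1.84e-12) and from KO of -1.63 ± 0.07 and -1.38 ± 0.07 (adjusted p = 1.81e-11 and 1.36e-10). ITGB1 was at 189.7 and 178 CPM in KO+CFLAR and 198 and 200.2 CPM in KO+STAMBP (log2 change from WT -0.87 ± 0.04 and -0.75 ± 0.04), where its pseudogene row ITGB1P1 had 53 and 91 counts in KO+CFLAR and 92 and 0 in KO+STAMBP. ITGAV was at 82.0 and 69.3 CPM in KO+CFLAR and 87.7 and 81.4 CPM in KO+STAMBP (-1.06 ± 0.07 and -0.90 ± 0.07). The 4 libraries given a construct were thus the lowest of the 10 for each of these 3 genes. ITGA6 was at 71.8 and 63.9 CPM in KO+CFLAR and 66.5 and 63.7 CPM in KO+STAMBP (-1.23 ± 0.05 and -1.29 ± 0.05). LAMC1 was at 127 and 120.1 CPM in KO+CFLAR and 125 and 123 CPM in KO+STAMBP (-1.28 ± 0.04 and -1.27 ± 0.04). LAMA1 was at 66.6 and 60.3 CPM in KO+CFLAR and 55.4 and 57.0 CPM in KO+STAMBP (-1.10 ± 0.05 and -1.27 ± 0.05). ITGA6 and LAMC1 had their highest levels in KO, while LAMA1 was highest in WT and differed little between KO and the groups given a construct (log2 change -0.20 ± 0.05 in KO+CFLAR and -0.37 ± 0.05 in KO+STAMBP). The LAMA1 difference between KO+CFLAR and KO was 0.00 when libraries were scaled by size alone.

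**Figure D4:**
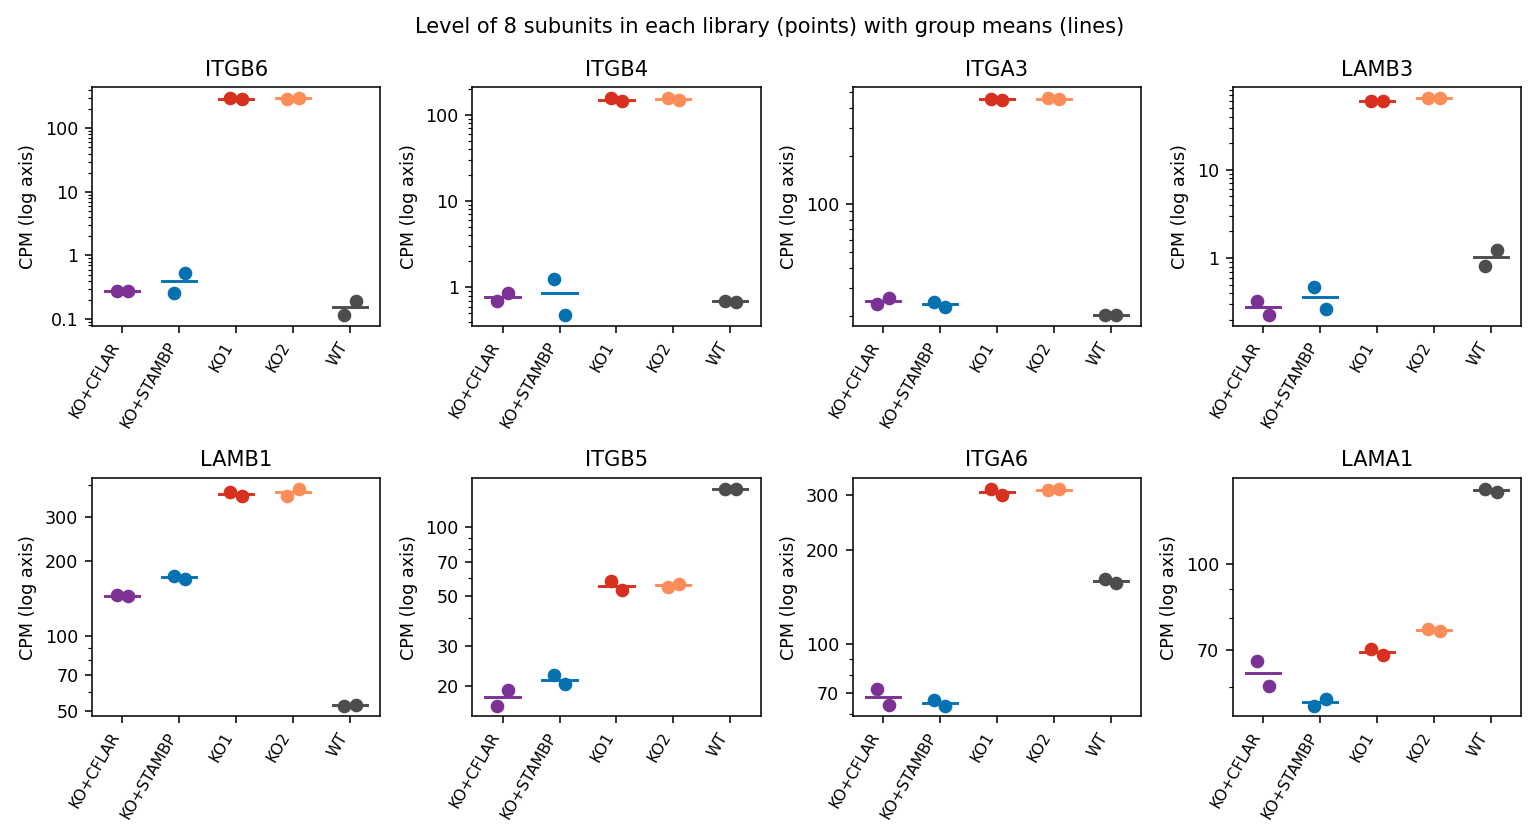
TMM-scaled CPM (log y axis) of 8 members in each library of KO+CFLAR, KO+STAMBP, KO1, KO2 and WT (x axis); points are libraries and lines are group means. ITGB6, ITGB4, LAMB3 and ITGA3 are high in KO1 and KO2 alone, LAMB1 stands between KO and WT in both groups given a construct, and ITGB5 and ITGA6 are lowest there.

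LAMA4 (-1.69 and -1.53), ITGA5 (-1.29 and -1.16), ITGA7 (-1.17 and -1.08), LAMB2 (-1.18 and -0.96), ITGA4 (-2.63 and -2.29), LAMB3 (-1.88 and -1.48) and ITGB8 (-0.26 and -0.36) were also lower than in WT, given as log2 changes in KO+CFLAR and KO+STAMBP. ITGA5 was at 5.07 and 6.12 CPM in KO+CFLAR and 6.23 and 5.98 CPM in KO+STAMBP, and ITGB8 at 119 and 113 CPM in KO+CFLAR and 109 and 106 CPM in KO+STAMBP. ITGA4 rests on 1 and 8 counts in KO+CFLAR and 4 and 6 in KO+STAMBP. LAMB3 rests on 7 and 5 counts in KO+CFLAR and 9 and 5 in KO+STAMBP. The LAMB3 call in KO+STAMBP was lost without KO+STAMBP replicate 2 (adjusted p = 0.0691) and without WT replicate 2 (0.112). LAMA5 and ITGA2 were close to WT. LAMA5 was at 68.7 and 70.2 CPM in KO+CFLAR and 62.8 and 67.9 CPM in KO+STAMBP, called in KO+STAMBP vs WT (-0.24 ± 0.06, adjusted p = 0.00728, and 0.0924 without KO+STAMBP replicate 1) and not in KO+CFLAR vs WT (-0.15 ± 0.06, adjusted p = 0.0710, and 0.0398 with DESeq2).

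**Figure D5:**
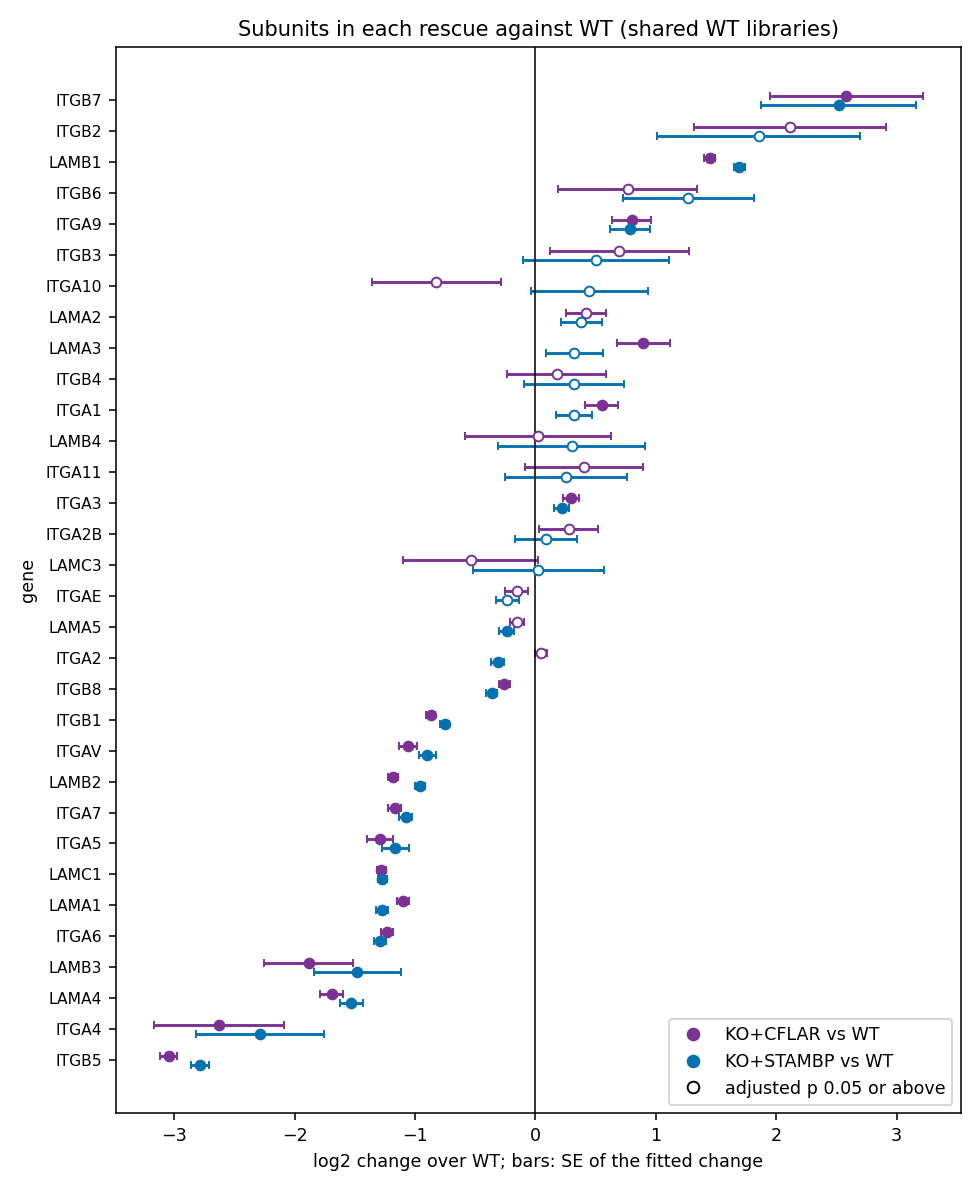
Fitted log2 change over WT (x axis) in KO+CFLAR and KO+STAMBP of tested members (y axis; ITGAM, with 2 counts or fewer in each of these groups, is left out), with bars of 1 SE; open points missed the adjusted p threshold of 0.05. ITGB7, with 3 and 3 counts in WT, and LAMB1 are well above 0. ITGB5 is lowest in both groups, which share their WT libraries.

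Per kb of merged exon length, LAMB1 and LAMA5 led the laminin beta and alpha chains in the groups given a construct, and the LAMA5 lead depends on the length used. LAMB1 held 67.7% of the laminin beta chains in KO+CFLAR and 68.0% in KO+STAMBP. LAMA5 held 44.9% of the laminin alpha chains in KO+CFLAR and 45.4% in KO+STAMBP, with LAMA1 at 36.9% and 35.2%. Per kb of longest transcript, LAMA5 at 6.08 ± 0.0905 and LAMA1 at 6.12 ± 0.434 CPM per kb did not differ beyond their SDs in KO+CFLAR, nor did LAMA5 at 5.72 ± 0.320 and LAMA1 at 5.42 ± 0.109 CPM per kb in KO+STAMBP. LAMB1 led under both lengths, as in KO. After ITGB1, ITGB8 held 18.4% of the integrin beta chains in KO+CFLAR and 16.1% in KO+STAMBP, ahead of ITGB5 at 6.69% and 7.52%.

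Between the groups given a construct, 3 members differed, in KO+CFLAR vs KO+STAMBP, beside 1.09% of all genes (0.627% as higher and 0.461% as lower). ITGA2 was higher, at 42.5 and 40.8 CPM in KO+CFLAR and 33.2 and 31.8 CPM in KO+STAMBP (log2 change 0.36 ± 0.05, adjusted p = 0.00457). LAMB1 was lower, at 145 and 144 CPM in KO+CFLAR and 174 and 169 CPM in KO+STAMBP (-0.24 ± 0.04, adjusted p = 0.0131). LAMB2 was lower too, at 57.2 and 57.1 CPM in KO+CFLAR and 66.8 and 66.8 CPM in KO+STAMBP (-0.22 ± 0.04, adjusted p = 0.0285). The groups do not overlap for these 3, but they were named because of the same values, so this adds no support. Against WT, ITGA2 changed by 0.04 ± 0.05 in KO+CFLAR (adjusted p = 0.543) and -0.31 ± 0.05 in KO+STAMBP (adjusted p = 0.000241). The ITGA2 call was lost without KO+STAMBP replicate 2 (adjusted p = 0.0891), and the LAMB1 call without KO+STAMBP replicate 1, KO+STAMBP replicate 2 or KO+CFLAR replicate 1 (0.072 to 0.159). The LAMB2 call was lost without any 1 of the 4 libraries compared or of the KO2 libraries (0.0505 to 0.245), and with only the groups compared fitted (0.0636).

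Between the knockout lines, edgeR called 0 of 34 members in KO1 vs KO2, beside 0.157% of all genes, and DESeq2 also called 0. At an unadjusted p under 0.05 there was 1 member, LAMA1, at 70.3 and 68.4 CPM in KO1 and 76.4 and 75.6 CPM in KO2 (log2 change -0.13 ± 0.05, adjusted p = 0.853).

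Other genes of the adhesion pathway were followed in KO vs WT from lists of adaptors, ligands and co-receptors. Of 28 tested adaptors that tie integrins to actin, 17 were higher and 6 lower (median log2 change 0.62), beside the 36.8% higher and 39.4% lower of all genes. FERMT1, an epithelial kindlin that activates integrins, was at 66.1 ± 4.46 CPM in KO and 0.180 ± 0.0905 CPM in WT (8.42 ± 0.18), and the actin linkers ACTN4, VCL and PXN changed by 2.38 ± 0.03, 2.14 ± 0.04 and 2.45 ± 0.04. Of 20 matrix ligands and assembly proteins, 13 were higher and 5 lower (median 0.95). Fibronectin, FN1, the ligand of ITGA5, was at 3148 ± 89.2 CPM in KO and 288 ± 7.87 CPM in WT (3.45 ± 0.03), while osteopontin, SPP1, changed by 5.92 ± 0.08, perlecan, HSPG2, by 3.58 ± 0.05 and TINAGL1, a basement membrane glycoprotein, by 11.44 ± 0.15. Most of these adaptors and ligands were higher in KO, and the adjusted p of each of the 8 genes named was at most 6.21e-15.

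Of 9 hemidesmosome and tetraspanin partners, 8 were higher and 0 lower in KO vs WT (median 1.06), beside 36.8% higher and 39.4% lower over all genes, to which the next counts compare too. COL17A1, a transmembrane collagen of hemidesmosomes that binds ITGB4, was at 288 ± 6.56 CPM in KO and 0.287 ± 0.0774 CPM in WT (9.91 ± 0.11). The plectin gene PLEC, which links ITGB4 to keratin filaments, changed by 1.71 ± 0.04, and the tetraspanins CD9 and CD151 by 3.59 ± 0.05 and 1.06 ± 0.05. Of 11 other laminin receptors 8 were higher and 2 lower (median 0.39), among them the syndecans SDC4 (5.60 ± 0.06) and SDC1 (4.21 ± 0.05) and CD44 (5.94 ± 0.08), while syndecan SDC2 was lower (-1.16 ± 0.05). Of 13 tested genes of integrin activation and trafficking 10 were higher and 2 lower (median 0.82), with RAB25, an endosomal GTPase of integrin recycling, at 101 ± 3.94 CPM in KO and 0.174 ± 0.247 CPM in WT (9.24 ± 0.21), ADAM9 at 1.79 ± 0.03, the integrin-binding protein CIB1 at 1.76 ± 0.08 and talin, TLN1, at 1.65 ± 0.04. The adjusted p of each of the 12 genes named was at most 6.90e-11. The same lists had, in KO+CFLAR vs KO, 4 higher and 23 lower adaptors, 3 higher and 16 lower ligands, 0 higher and 8 lower hemidesmosome partners, 3 higher and 8 lower laminin receptors and 0 higher and 11 lower activation genes, beside 40% higher and 38% lower over all genes. In KO+STAMBP vs KO the counts were 4 and 24, 3 and 16, 1 and 8, 2 and 8, and 0 and 10, beside 40.1% and 37.8% over all genes.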

How the data were processed

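RNA of 10 libraries was sequenced (5 groups of 2). Raw counts, whole numbers per gene, were deposited by the authors in 1 table of 60898 rows. Per the submitters' processing notes, DESeq2, RSEM 1.2.4 and fastp 0.20.0 were used, with builds GRCh38 and hg38; roles and order are not stated. Whether RSEM estimates were rounded, the annotation and the strand setting are not given in the sources used here. Of the 35 members, 17 stand on rows named for a merged locus, and 25 overlap a gene on the opposite strand in GENCODE 29, where 57973 of 60231 Ensembl identifiers were found.

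From the deposited counts, edgeR 4.0.16 in R 4.3.3 fitted a quasi-likelihood model with TMM factors and a mean per group over all 10 libraries (5 residual degrees of freedom). filterByExpr kept 21063 genes, and p-values were adjusted over all of them by Benjamini-Hochberg. KO is the equal-weight mean of KO1 and KO2. CPM uses TMM-scaled library sizes, and SE is the size of the log2 change divided by the root of F. TMM factors were 0.914 to 0.929 in KO and 1.04 to 1.07 elsewhere. The chi-square per gene between the libraries of a group was 1.93 to 3.59, above sampling noise, so none was counted as a duplicate. The fit was tested on simulated counts.

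Some members and markers are not reported here. The members and lists were chosen with earlier results of these data known. Values per library are given for members called in both knockout lines with at least a 4-fold change and a group mean of at least 5 CPM, for those at 50 CPM or more in any group, and for those called between the groups given a construct or between the lines; the others have means or ranges, with some values per library where a result turns on them. Up to 4 genes per other list are named, by adjusted p. Alternatives were DESeq2 1.42.0, median-of-ratios factors, library size alone, no filter, at least 50 counts in at least 2 libraries, a replicate block, leaving out 1 library at a time, fitting the compared groups by themselves, each knockout line alone, and longest transcript length; a fit with no libraries labelled KO+CFLAR was added after seeing the data.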

Additional observations from a re-analysis of the deposited data

Results flagged for a closer look

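Of the members, 3 are listed because KO+CFLAR and KO+STAMBP differed from each other in a test of the difference itself. ITGA2 had a log2 change of 0.36, LAMB1 of -0.24 and LAMB2 of -0.22 in KO+CFLAR vs KO+STAMBP, beside 1.09% of all genes called. Each of these calls was lost when 1 library of the groups compared was left out. No member had a library among the 4 KO libraries standing apart by Dixon's test (0 of 35 members; chance alone would give about 1 in 20).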

How the results depend on the processing

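Of 4322 values of members under alternatives, 4266 kept their side of the threshold, 36 lost their call, 19 gained one and 1 changed sign. Sign changes were counted only among values called in the main fit. The sign change was LAMA1 in KO+CFLAR vs KO, with a log2 change of 0.00497 under library size alone; the cause was not tested. Library size alone moved the median of all genes to -0.22 in KO vs WT, 0.24 in KO+CFLAR vs KO and 0.25 in KO+STAMBP vs KO, and raised the members higher in KO+CFLAR vs KO and in KO+STAMBP vs KO to 5 each, adding ITGB7 and LAMA2. With only the groups compared, 1 member was lower in KO+CFLAR vs KO+STAMBP. Leaving out 1 library gave 0 to 1 higher and 0 to 2 lower members in that comparison and 3 to 5 higher in KO+STAMBP vs WT; where this leaves a group with 1 library, its spread is borrowed from the other groups. In KO vs WT, leaving out 1 library gave 23 to 24 higher and 6 lower members. With no libraries labelled KO+CFLAR, chosen after seeing the data, KO vs WT had 24 higher and 6 lower members. The replicate numbers did not pair the samples (10 pairs of groups, r from -0.02 to 0.07), and the replicate block gave 24 higher and 6 lower members in KO vs WT and changed no count in the other comparisons. Per longest transcript, shares in KO+CFLAR were 23.7% for ITGA6, 40.7% for LAMA5 and 71.0% for LAMB1, in KO+STAMBP 23.6% for ITGAV, 41.1% for LAMA5 and 71.3% for LAMB1, in KO 26.6% for ITGAV, 73.4% for ITGB1, 81.6% for LAMA5 and 61.2% for LAMB1, and in WT 30.6% for ITGA6, 64.0% for ITGB1, 51.7% for LAMA1 and 70.5% for LAMB2. The leading chain was the same under both lengths except in KO+CFLAR, where LAMA1, at 40.8%, came before LAMA5. Members with under 10 counts in at least 1 library (ITGA10, ITGA11, ITGA2B, ITGA4, ITGAL, ITGAM, ITGB2, ITGB3, ITGB4, ITGB6, ITGB7, LAMB3, LAMB4, LAMC3) are limited by depth.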
